A study of Mus musculus with 4 samples.

Results

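The region described here is the acetylated domain of Wwp2 and Mir140 on mouse chromosome 8. Its members are all rows of the 2 deposited H3K27ac peak lists that overlap a window of 200 kb, chr8:107400000-107600000 (mm10). There were 92 such peaks among 13130 in the Cre list and 96 among 12873 in the GFP list. The region was chosen because earlier work on these lists showed dense peaks there, so its peak number, covered length and rank describe the choice and support nothing by themselves.

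H3K27ac is the acetylation of histone H3 at a lysine that marks active promoters and enhancers. The cells were primary chondrocytes of C57Bl/6 mice, grown ex vivo as micromass cultures, which are dense spots of cells that lay down cartilage matrix. The Cre culture was transduced with Cre-recombinase adenovirus and carries the genotype label hdac3-knockout. The GFP culture was transduced with GFP control adenovirus and carries the genotype label wild-type. HDAC3 is a histone deacetylase, and the series set out to find how its deletion changes H3K27ac profiles. Each condition had 1 library, so no replicate check and no test between the conditions was possible, and every difference below is a difference between 2 libraries. A peak list does not measure the deletion, and the share of cells that took up either virus is not given in the sources used here.

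Wwp2 encodes a HECT-type ubiquitin ligase of the NEDD4 family, whose WW domains bind proline-rich motifs of their targets. Mir140 lies inside Wwp2 on the same strand, and its hairpin is processed to miR-140-5p and miR-140-3p, which are abundant in cartilage. SOX9, the chondrocyte master regulator, is known to promote expression of both, and mice without miR-140 have shortened bones and early cartilage degeneration.

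Both member genes matched the RefSeq tables of GRCm38.p6, whose coordinates are those of mm10. Wwp2 (gene ID 66894) is a protein-coding gene of 122957 bp at 107436334 to 107559290 on the plus strand. Mir140 (gene ID 387158) is a microRNA gene of 70 bp at 107551244 to 107551313, also on the plus strand. The table gives no exons, so peaks are placed within the gene but not in exons or introns. A few stretches of sequence are shown, each because the peaks bear on it. The hairpin falls in a gap between peaks, the annotated Wwp2 promoter has no peak, and the promoter of the lncRNA gene Gm51547 within Wwp2 has a peak in both libraries. In the hairpin (chr8:107551244-107551313, plus strand) the capitals mark mature miR-140-3p, bases 45 to 65. In miR-140-3p the capitals mark the seed, bases 2 to 8, which 1 other mature miRNA in the table, mmu-miR-497b, shares.
Mir140 hairpin: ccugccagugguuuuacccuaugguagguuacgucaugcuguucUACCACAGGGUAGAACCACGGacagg
mmu-miR-140-3p: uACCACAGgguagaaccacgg

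The RefSeq promoter of Wwp2 runs from 250 bases before to 50 after a gene start (chr8:107436120-107436419, plus strand). Capitals mark the matches to 4 searched motifs, read on both strands with no overlap between matches: ACAAAG and ACAATG, cores of SOX binding sites, CACGTG, an E-box, and GGGCGG, a GC box. CACGTG occurred once and GGGCGG once, the latter on the minus strand. Among 32851 RefSeq promoters of the same length, 7.15% held CACGTG, 35.7% held GGGCGG, 18.7% held ACAAAG and 12.6% held ACAATG. The Wwp2 promoter held 28 CpG dinucleotides, against a median of 7 over all promoters. A match is a description of the letters and not of a bound site.
Wwp2 promoter: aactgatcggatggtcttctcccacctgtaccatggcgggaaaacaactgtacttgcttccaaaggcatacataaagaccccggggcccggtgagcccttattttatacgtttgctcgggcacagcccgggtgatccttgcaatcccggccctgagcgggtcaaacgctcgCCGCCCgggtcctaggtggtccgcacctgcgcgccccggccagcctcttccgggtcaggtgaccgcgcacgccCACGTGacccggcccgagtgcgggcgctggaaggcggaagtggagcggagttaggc

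In the promoter of Gm51547 (gene ID 115486894, chr8:107505719-107506018, minus strand) the capitals mark the 66 bases that lay under a peak of both libraries. None of the 4 motifs occurred in it.
Gm51547 promoter: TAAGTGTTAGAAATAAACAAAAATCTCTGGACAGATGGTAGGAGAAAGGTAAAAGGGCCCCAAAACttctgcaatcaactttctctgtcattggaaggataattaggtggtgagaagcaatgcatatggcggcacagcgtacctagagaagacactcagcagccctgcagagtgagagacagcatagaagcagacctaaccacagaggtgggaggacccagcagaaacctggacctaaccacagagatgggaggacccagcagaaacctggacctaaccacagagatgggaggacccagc

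The height of a peak is given as its summit pileup, the number of fragments at the summit recovered from the authors' fold and p-value. Its range over a whole list was 7 to 63 fragments for Cre and 7 to 58 for GFP. The genome background of expected pileup was 1.01 and 0.949, a ratio of 1.06 that serves as the relative depth, since no source used here gives read totals. Genes that mark chondrocytes carried the mark: 12 of 12 had a peak in the gene or within 10 kb in both libraries. They had 37156 bp (Cre) and 47371 bp (GFP) covered. Of all 21900 protein-coding genes 4302 had a peak in both libraries, and 32.3% had one in either. Markers of endothelium (4 genes), muscle (4), adipocytes (4) and hypertrophic chondrocytes (3) had no peak in either list. Of osteoblast markers 1 of 5, Sp7, had peaks (295 bp for Cre, 604 bp for GFP), and of macrophage and blood markers 2 of 5, Cd68 and Cd14, did (192 and 768 bp together).

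The peaks of Wwp2 lay inside the gene, and none was called at its annotated start in either culture. The Cre list had 91 peaks in Wwp2 and the GFP list 93, covering 32199 and 32900 bp, or 26.2% and 26.8% of the gene. No peak of either list lay within 1 kb of the annotated start, which says only that no peak was called there. The first peak began 16.8 kb into the gene in the Cre library (chr8:107453173-107453319) and 19.8 kb into it in the GFP library (chr8:107456090-107456373). The last peak within the gene ended 4.48 kb and 2.98 kb before the annotated end. Between the first and the last peak, 31.7% of the sequence was under a Cre peak and 32.8% under a GFP peak. Split at its midpoint, the gene had 50 Cre and 51 GFP summits on the side of its start and 41 and 42 on the other.

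**Figure D1:**
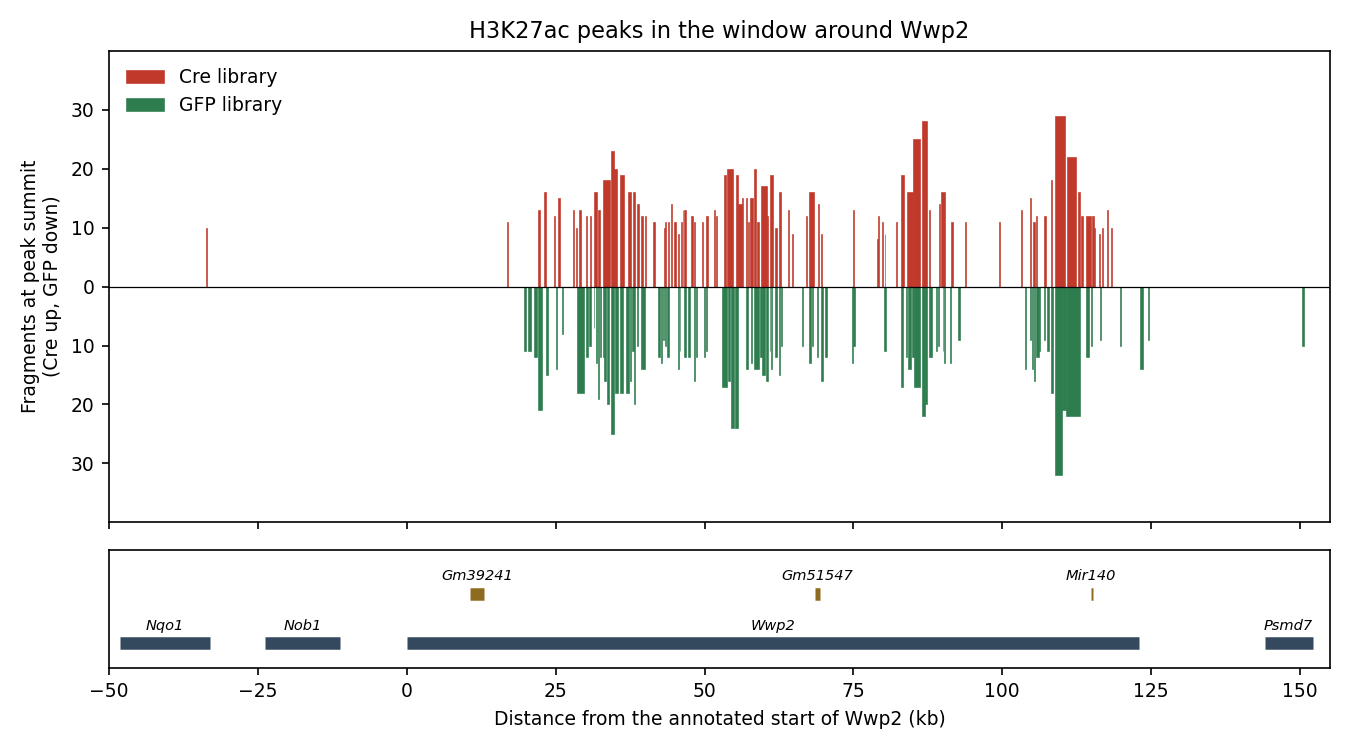
Each bar is 1 H3K27ac peak, as wide as the peak and as high as its summit pileup in fragments (vertical axis), with the Cre library drawn upwards and the GFP library downwards, against distance in kb from the annotated start of Wwp2 (horizontal axis). The lower panel shows the annotated genes. Peaks start 16.8 kb (Cre) and 19.8 kb (GFP) into Wwp2, and the tallest bar of each library stands near 109 kb, short of Mir140.

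The neighbouring genes held few peaks. Nqo1, a quinone reductase gene upstream, had 1 Cre peak of 147 bp (chr8:107402542-107402688, fold 5.48, 10 fragments), 517 bp from its start, and no GFP peak. Nob1, a ribosome maturation gene, and the lncRNA gene Gm39241 had none in either list, and neither had the pseudogene Rps26-ps1. Psmd7, encoding a proteasome subunit, had 1 GFP peak of 294 bp (fold 5.64, 10 fragments) and no Cre peak. Just past the end of Wwp2 the GFP list had 2 more peaks, 466 bp wide with 14 fragments (chr8:107559502-107559967) and 257 bp wide with 9 fragments, and the Cre list had none. Outside the region the nearest Cre peaks lay 104.6 kb before it and 1965 kb after it, and the nearest GFP peaks 75.96 kb before and 1286 kb after.

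Within Wwp2 the peaks fell into 3 crowded stretches separated by gaps of more than 3 kb that neither list filled. The first stretch, 53.7 kb long and starting 16.8 kb into the gene, held 58 peaks of the Cre and 60 of the GFP list, with 18240 and 20078 bp under them. The second, 15.1 kb long and starting 78.9 kb into the gene, held 14 and 15 peaks over 6039 and 4989 bp. The last, 16.8 kb long and starting 103.1 kb into the gene, contained Mir140 and held 17 and 16 peaks over 7578 and 7412 bp. As a share of the summed length, Cre had 47.6%, 54.8% and 50.6% in this order, so the libraries split each stretch almost evenly. Between them stood small islands, 1 Cre and 2 GFP peaks in 0.493 kb at 74.7 kb into the gene and a single Cre peak of 163 bp at 99.4 kb.

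The longest sequence without a peak of either library was 5.42 kb (chr8:107530322-107535737), between the second stretch and the lone Cre peak. The longest gaps of the Cre list were this one, one of 5.20 kb that held 4 GFP peaks, and one of 5.09 kb near the first peaks that also held 4. The longest gap of the GFP list was 10.8 kb (chr8:107529259-107540099) and held 3 Cre peaks, followed by gaps of 4.99 kb with 3 Cre peaks and 4.17 kb with none. Most gaps were short. Of 90 Cre gaps 55 were under 500 bp, and of 92 GFP gaps 62 were, with medians of 400.5 and 301.5 bp. Neighbouring summits were a median of 802 bp apart in the Cre library (quartiles 561 and 1261) and 739 bp in the GFP library (397.5 and 1135).

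In steps of 10 kb along Wwp2 the libraries kept close to each other except near the start of the domain. From 20 to 30 kb the covered length was 1554 bp for Cre against 3656 bp for GFP, a Cre share of 29.8%. Both lists had 7 summits there, so the GFP peaks were the wider ones. The widest of them spanned 1296 bp (chr8:107464834-107466129, 18 fragments), where the Cre list had 2 overlapping peaks. In the 8 steps from 30 to 110 kb the Cre share ranged from 44.4% to 56.9%, and from 110 to 120 kb it was 54.9%. The step from 10 to 20 kb held 1 summit of each library, with 147 and 244 bp covered (Cre share 37.6%), and the first and last steps held nothing.

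**Figure D2:**
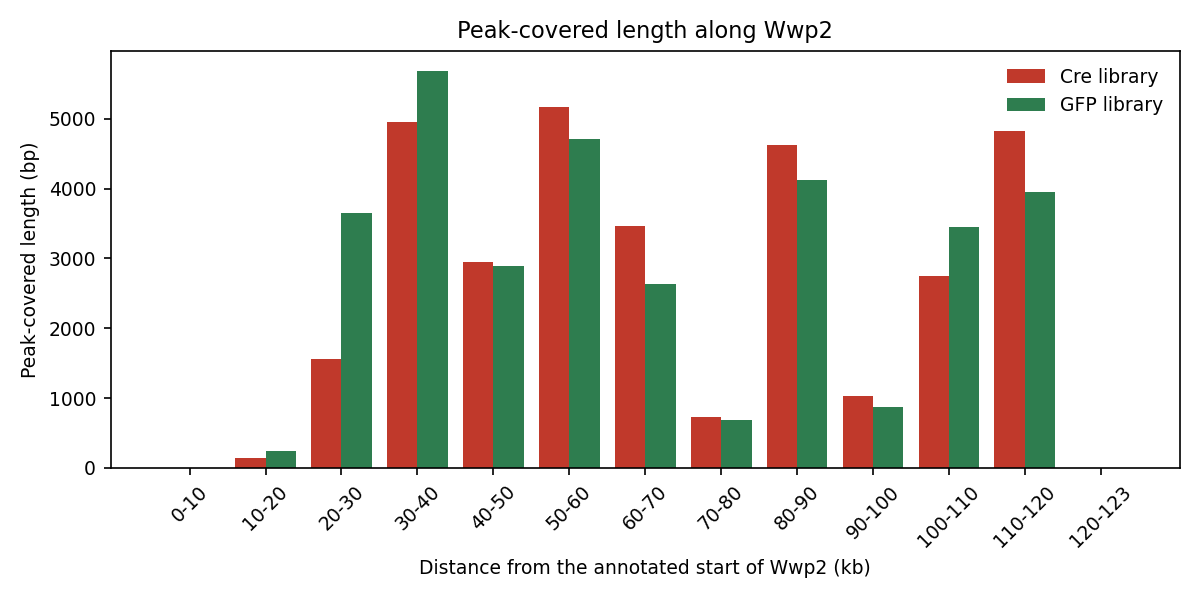
Bars give the length in bp under peaks (vertical axis) in successive 10 kb steps from the annotated start of Wwp2 (horizontal axis; the last step is 2.957 kb) for the Cre and the GFP library. Both libraries peak at 30 to 40, 50 to 60, 80 to 90 and 110 to 120 kb, and the widest separation is at 20 to 30 kb, 1554 against 3656 bp.

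The site of highest fold in the region was the same in both cultures and lay upstream of Mir140. The Cre peak (chr8:107545127-107546940) was 1814 bp wide with fold 11.7 and 29 fragments at the summit. The GFP peak (chr8:107545129-107546313) was 1185 bp wide with fold 16.9 and 32 fragments. Their summits were 2 bp apart, 5845 and 5847 bp before the hairpin. The Cre library held 47.5% of the fragments at the pair of summits (exact Clopper-Pearson 95% interval 34.6 to 60.7, counting error only). The relative depth taken from the genome backgrounds gives 51.5%. The folds rank each peak in its own list, at 206 of 13130 and 46 of 12873.

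A second broad site followed it towards Mir140. The Cre peak (chr8:107547197-107548712) was 1516 bp wide with 22 fragments, and the GFP peak (chr8:107547080-107549411) was 2332 bp wide with 22 fragments, with summits again 2 bp apart. The GFP list split the sequence between these sites differently, with a further peak of 586 bp and 21 fragments that the wide Cre peak ran into. The Cre peak of 1814 bp and the GFP peak of 2332 bp each ranked 7 by width in their lists.

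The Mir140 hairpin itself lay in a gap between peaks in both libraries. In the Cre library the gap was 142 bp, bounded by a peak of 743 bp that ended 26 bp before the hairpin and a peak of 349 bp that began 46 bp after it, with 12 fragments each. In the GFP library the gap was 484 bp, from a peak of 468 bp and 12 fragments ending 410 bp before the hairpin to a peak of 144 bp and 10 fragments beginning 4 bp after it. Both flanking peaks overlapped their counterparts in the other library. A gap says only that no peak was called there.

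Within 10 kb of Mir140 on each side there were 15 Cre and 16 GFP peaks, of which 9 and 9 overlapped a peak of the other list. The side towards the start of Wwp2 carried most of the length, 5726 bp (Cre) and 6399 bp (GFP), against 1403 and 1295 bp on the side towards its end. Downstream the libraries differed in position. All 6 Cre peaks there ended by 107554808, which is 4.48 kb before the end of Wwp2, whereas 3 of the 5 GFP peaks lay beyond that point. Each of these peaks had between 9 and 14 fragments. Within 5 kb the counts were 11 and 7.

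**Figure D3:**
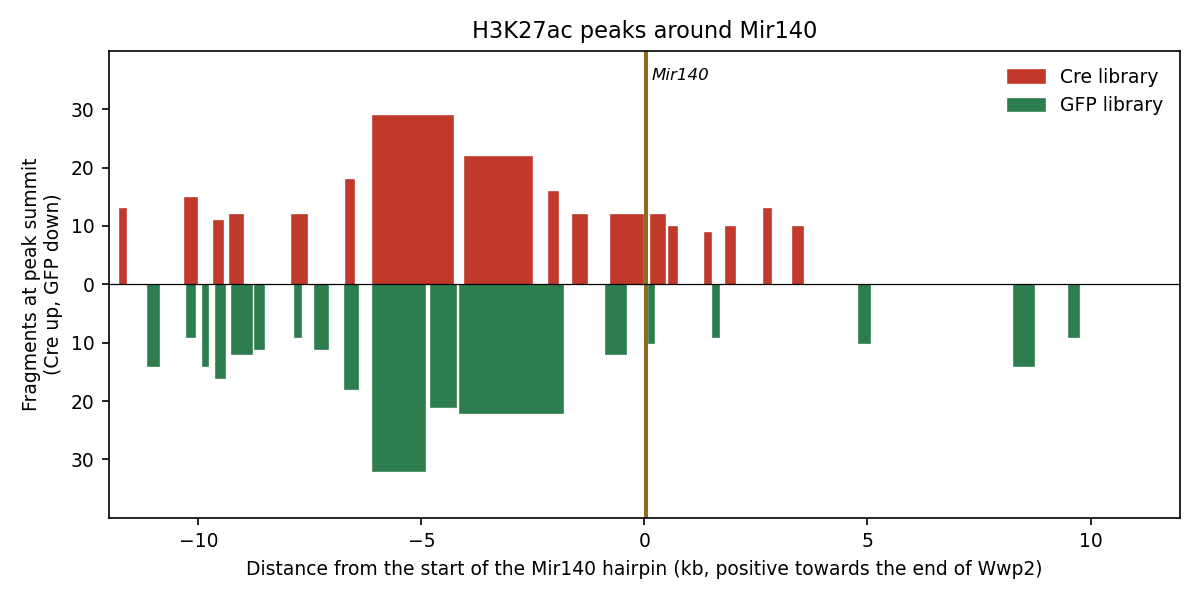
Peaks of the Cre library (upwards) and the GFP library (downwards) within 12 kb of the Mir140 hairpin, drawn to width, with summit pileup in fragments on the vertical axis and distance in kb from the start of the hairpin on the horizontal axis, positive towards the end of Wwp2. The vertical band is the hairpin, which no peak covers, and the tallest peaks, with 29 and 32 fragments, stand 5.85 kb before it.

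The other sites of high fold were spread over the domain. In the Cre library the next folds were 10.5 (20 fragments, 58.4 kb into Wwp2), 10.2 (25 fragments, 86.1 kb), 9.82 (19 fragments, 61.2 kb), 9.60 (19 fragments, 83.2 kb) and 9.46 (18 fragments, 108.3 kb). In the GFP library they were 12.8 (24 fragments, 54.8 kb), 12.51 (25 fragments, 34.5 kb), 11.8 (22 fragments, 86.5 kb), 11.8 at the second site before Mir140, and 11.3 at 22.4 kb and at 110.3 kb (21 fragments each). All of these peaks overlapped a peak of the other library. Besides the sites before Mir140, the widest Cre peaks were 1096 bp (chr8:107521418-107522513), 1074 bp and 1013 bp, and the widest GFP peaks were 1296 bp, 982 bp (chr8:107521534-107522515) and 955 bp.

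Peaks of the region were wider than those of the lists they came from, at about the same median height. Median width was 247 bp (Cre) and 278.5 bp (GFP), against 194 and 198 bp over the whole lists. Peaks of 500 bp or more made up 16.3% and 16.7% of the region, against 5.62% and 6.12% of the lists. Median pileup was 13 and 12 fragments in the region and 12 in both lists, and median fold was 6.38 and 6.67 against 5.98 and 6.16. Tall peaks were somewhat more frequent in the region. With 15 to 19 fragments there were 22 of 92 (Cre) and 19 of 96 (GFP), against 2298 of 13130 and 2036 of 12873 in the lists. With 20 or more there were 8 and 11, against 759 and 747. At −log10 q of 10 or more were 13.0% and 20.8% of the region, against 12.3% and 13.0% of the lists. These values describe peaks chosen for their density and were not tested.

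Over the region the 2 lists had almost the same length under called peaks. The total under peaks was 32346 bp for Cre against 33917 bp for GFP, a Cre share of 48.8%, where the whole lists gave 50.2%. The Cre share of the peak number was 48.9% (exact Clopper-Pearson 95% interval 41.6 to 56.3, counting error only). Both libraries marked the same 19020 bp, which is 58.8% of the Cre and 56.1% of the GFP length. Over the whole lists the shared length was 34.0% and 34.3%.

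Peak by peak, 58 of 92 Cre peaks (63.0%, exact interval 52.3 to 72.9) overlapped a GFP peak by at least 1 bp, against 40.7% of the whole Cre list. Of the GFP peaks 69 of 96 (71.9%, 61.8 to 80.6) overlapped a Cre peak, against 41.4% of the whole GFP list. Among the 102 genes with at least 10 peaks in each library, the median share was 49.1% (Cre) and 44.4% (GFP). Within the Wwp2 gene it was 63.7% and 74.2%, ranking 24 and 7 of the 102, so other dense genes had higher shares. The shares of the region depended on the rule. Overlap over at least 50% of both peaks gave 30.4% (Cre) and 29.2% (GFP) in the region and 21.8% and 22.2% over the lists, and summits within 150 bp gave 39.1% and 38.5% against 29.7% and 30.3%. Wide Cre peaks took in several GFP peaks more often than the reverse: 12 Cre peaks overlapped 2 GFP peaks and 3 overlapped 3, while 7 GFP peaks overlapped 2 Cre peaks and none overlapped more. Whether peaks this dense, over 31.7% and 32.8% of the domain, meet more often by position alone was not tested.

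Taller peaks were shared more often, in the region as in the lists. With 10 to 14 fragments, 28 of 56 Cre peaks (50%, 36.3 to 63.7) and 36 of 58 GFP peaks (62.1%, 48.4 to 74.5) were shared, against 34.6% and 36.0% of the lists. With 15 to 19 fragments, 19 of 22 Cre peaks (86.4%, 65.1 to 97.1) and 18 of 19 GFP peaks (94.7%, 74.0 to 99.9) were, against 64.8% and 65.1%. With 20 or more, 8 of 8 and 11 of 11 were shared, which allows shares down to 63.1% and 71.5%, against 88.1% and 89.6% of the lists. Only 6 Cre and 8 GFP peaks of the region had 7 to 9 fragments. Of these 3 and 4 were shared (50% each), against 18.5% and 22.2% of the lists. For Cre this was the same share as at 10 to 14 fragments.

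**Figure D4:**
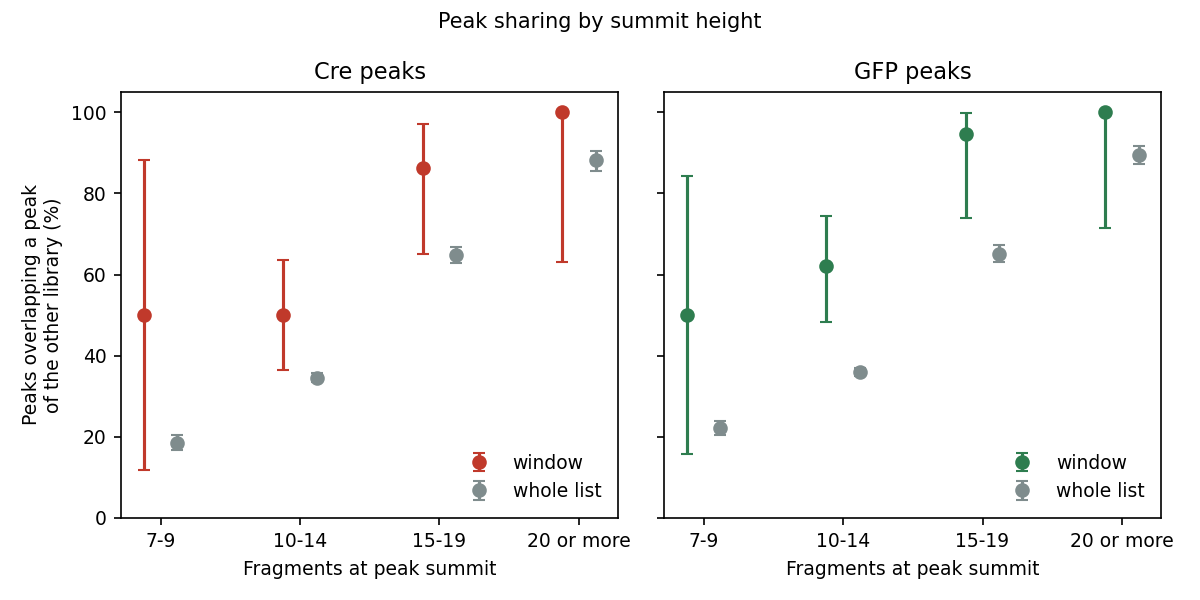
Points give the percentage of peaks that overlap a peak of the other library (vertical axis) by summit pileup in fragments (horizontal axis), for the region (coloured) and the whole list (grey), with exact Clopper-Pearson 95% intervals as error bars. In the region the share goes from 50% to 100% with height in both libraries, with 50% for Cre at both 7 to 9 and 10 to 14 fragments. The few peaks in each class leave wide intervals.

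Peaks found in 1 library alone had somewhat fewer fragments than shared peaks, and most lay near a peak of the other library. The 34 such Cre peaks had from 8 to 16 fragments (median 12), and the 27 GFP peaks from 8 to 15 (median 11). Shared peaks of the region had medians of 13.5 and 14, and the median of both whole lists was 12. A peak of the other list lay within 1 kb of 26 of the 34 and 21 of the 27, and within 200 bp of 11 and 11. Median gaps between peaks in Wwp2 were 400.5 bp (Cre) and 301.5 bp (GFP). Whether the one-library peaks lay closer than any position in so dense a domain was not tested. By fold, 4 of the 34 Cre peaks were under 5, 25 from 5 to 7 and 5 at 7 or more, and the 27 GFP peaks divided 4, 18 and 5. The highest Cre folds without a partner were 7.97 at 25.6 kb and at 56.4 kb into Wwp2 (15 fragments each), 7.50 at 23.2 kb and 7.47 at 44.4 kb. The highest GFP folds were 7.70 at 23.5 kb, at 25.1 kb and at 103.9 kb, and 7.18 at 42.7 kb and at 74.8 kb. The Cre peak at 23.2 kb and the GFP peak at 23.5 kb, with 16 and 15 fragments, missed each other by 25 bp.

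Where 1 Cre peak met 1 GFP peak and no other, which gave 32 pairs in the region, the heights were alike. The Cre summit was higher in 17 pairs, the GFP summit in 11, and 4 were tied. The Cre share of the fragments of a pair had a median of 51.7% and ranged from 36% to 62.5%, around the 51.5% that depth gives. In 0 of 32 pairs did the exact 95% interval of that share leave out the depth value, and over all 4235 such pairs of the series 0.85% did. With 20 to 30 fragments in most pairs these intervals are wide, from 40.6% to 81.2% for the pair of largest Cre share (15 and 9 fragments, 104.8 kb into the gene). Summits of a pair lay a median of 63.5 bp apart, against 61 bp over all pairs. Across the 32 pairs Pearson's r of log2 pileup was 0.57, and 0.49 without the tallest; the points share 2 libraries and are neighbours on 1 gene.

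Wwp2 held the most peaks and the greatest covered length of the 21900 protein-coding genes in both libraries. Per length of gene it ranked 3 of 141 genes with at least 10 peaks in the Cre library and 4 of 146 in the GFP library. The genes most like it in peak number and covered length, by Euclidean distance over 4 log2 values from the 2 libraries among 102 genes with at least 10 peaks in each, were Aopep (distance 1.26), Xylt1 (1.33), Fndc3b (1.63), Zbtb20 (1.71) and Col9a1 (2.40). The covered length was 22816 bp (Cre) and 17356 bp (GFP) in Aopep. It was, in the same order, 18350 and 18483 bp in Xylt1, 20988 and 13850 in Fndc3b, 13183 and 22426 in Zbtb20, and 10955 and 14443 in Col9a1. The Cre share of covered length was 49.5% in Wwp2, close to the median of 48.4% over the 102 genes, which ranged from 30.6% to 76.6%. Because these genes needed at least 10 peaks in each library, genes dense in 1 list alone are left out, which favours even shares. Peaks covered 26.2% and 26.8% of Wwp2, and 14.6% and 19.2% of Col9a1, the shortest of the 5 genes most like it. Among the 102 genes the share of Wwp2 was not the highest. It was 36.1% and 43.5% in Ssr3 and 27.2% and 35.9% in Hoxa10, which are shorter genes (12897 and 9658 bp). Joined over gaps of up to 12500 bp, the peaks made domains of 101.6 kb (Cre) and 104.9 kb (GFP), which ranked first in both libraries by covered length and 2 and 1 by total length.

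**Figure D5:**
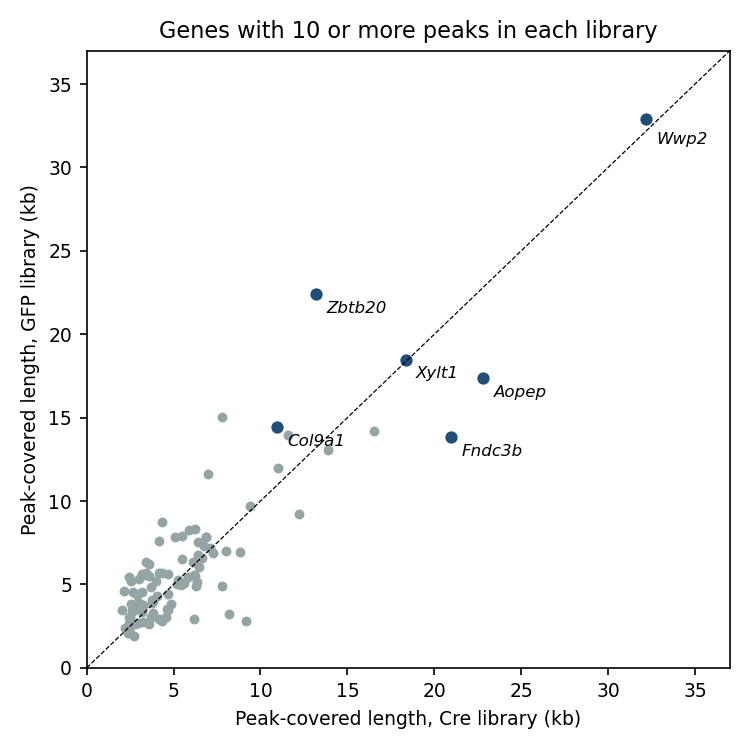
Each point is 1 of the 102 protein-coding genes with at least 10 peaks in each library, placed by its peak-covered length in kb in the Cre library (horizontal axis) and the GFP library (vertical axis), with the line of equal length dashed. Wwp2 lies nearly on the line, at 32199 and 32900 bp, beyond the 5 genes named as most like it.

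Of those 102 genes, 80 had an entry in the promoter table, and a peak within 1 kb of an annotated start was found in both libraries at 40 of them, in 1 library at 13 and in neither at 27, among them Wwp2. The nearest peak to the Wwp2 promoter start was 16803 bp away for Cre and 19720 bp away for GFP. At Gm51547 the promoter peaks were 147 bp wide with 9 fragments (Cre) and 290 bp wide with 16 fragments (GFP), their summits 5 bp apart. Its body held 1 further peak of each library, with 14 and 12 fragments.

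The factors known to act upstream of Wwp2 and miR-140 were acetylated in both cultures. Around Sox9 (the gene with 10 kb on each side) 7 Cre peaks took up 1463 bp and 3 GFP peaks 1183 bp. Sox5 and Sox6, which bind with SOX9 at cartilage enhancers, had 39 and 45 peaks (13863 and 13041 bp) and 34 and 25 peaks (8838 and 6948 bp). All 3 had more length under Cre peaks. Of all protein-coding genes 15.8% had more Cre and 16.4% more GFP length, but these shares count genes without a peak. Among the 7081 genes with a peak in either list, 3471 had more Cre and 3601 more GFP length. Covered lengths carry no test here.

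Of 8 other NEDD4-family ligase genes, 62.5% had a peak in the gene or within 10 kb in either list, against 32.3% of all protein-coding genes. Gene length was not taken into account in this or the other such shares, and Smurf2 had only 1 peak in each list. Of the 8, 1 had more Cre length and 4 had more GFP length. Of all genes 15.8% and 16.4% did, or 3471 and 3601 of the 7081 with a peak. Wwp1, Smurf1 and Hecw1, 3 of the 8, had no peak in either list. Nedd4, the founding member, had the longest cover, 3976 bp in 14 Cre peaks against 6372 bp in 20 GFP peaks. Nedd4l, which controls sodium channels, had 1195 and 2007 bp, and Itch, a regulator of T cells, had 1 GFP peak of 222 bp. Hecw2 was marked by Cre peaks alone, 4 over 976 bp. Among 9 genes of WWP2 binding partners and substrates, 2 had more Cre length (Gsc and Med25), 2 had more GFP length (Runx2 and Egr2), and 5 had no peak, so 44.4% were marked against the same 32.3%. Gsc, a homeobox factor of craniofacial cartilage, had 394 bp in the Cre list alone, and Runx2, which drives hypertrophy, 535 and 1042 bp.

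Of 10 genes known as miR-140 targets, 5 (50%) had a peak in the gene or within 10 kb in either list, against 32.3% of all protein-coding genes. The 5 without one included Adamts5, the aggrecanase gene, and Mmp13, the collagenase gene. Sp1, a general transcription factor, had 1274 bp under Cre and 787 bp under GFP peaks. Vegfa, the angiogenic factor, with 344 bp, Dnpep with 181 bp and Rala with 147 bp were marked in the Cre list alone. Hdac4, a deacetylase that restrains hypertrophy, covered 161 and 288 bp. In all, 4 of the 10 had more Cre length and 1 more GFP length, against 15.8% and 16.4% of all protein-coding genes. Among the 7081 genes with a peak, 3471 and 3601 did. Covered lengths of the targets were not tested. These are 1 to 6 peaks a gene, acetylation does not measure the RNA that a miRNA acts on, and no RNA data were used here.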

How the data were processed

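H3K27ac ChIP-seq peaks of 1 Cre and 1 GFP library were used; the 2 input libraries and the RNA-seq data were not analysed here. Per the submitters' processing notes, the authors worked in mm10 with BWA, Picard, SICER and bcl2fastq (1.8.4). By their naming and column order the deposited lists are MACS2 peak output, 1 per library; for the caller's version, settings and control no source is at hand here. In 100% of rows the deposited score equalled 10 times the −log10 q-value, rounded down. The deposited fold is a ratio of observed to expected pileup at the summit with 1 added to both, and the deposited significance, as −log10 of p and of q, is for that position. Folds and significance are the authors' values and serve to describe or order the peaks of 1 list; folds of the 2 lists printed side by side are no measure of change.

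Fold and −log10 p-value were solved together for the summit pileup with a Poisson tail; 100% of peaks gave a whole number within 0.001. Depth is otherwise unknown. Peaks overlapped when they shared 1 bp. Coordinates are 1-based mm10. Shares carry exact Clopper-Pearson 95% intervals that cover counting error only, and neighbouring peaks are not independent. Overlap and pileup code was tested on simulated data. Analyses ran in Python 3.11.15 with scipy 1.17.1 and pandas 2.3.3. Alternatives were peak filters, merging, windows, overlap rules and stitching distances. The region, its members, the gene lists and the rule for what is named were chosen with earlier results of these data known. That rule named all annotated genes of the region, the 6 peaks of highest fold and 5 widest per library, the peaks near Mir140 and at the ends of Wwp2, the 4 highest one-library peaks, the 3 longest gaps, and the 5 genes most like Wwp2; a few further peaks were named after their values were seen. Sequences are from RefSeq tables of GRCm38.p6. 1 gene of the list of WWP2 partners is not reported here.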

Additional observations from a re-analysis of the deposited data

How the results depend on the processing

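Of 47 alternatives, 23 left their result within 1.5 times of a count or length, or within the interval of a share, and 24 did not. The Cre share of covered length has no interval of its own. For it, 7.36 percentage points on each side were allowed, taken from the interval of the Cre share of peak number. Peak numbers (92 Cre, 96 GFP) were 12 and 20 at −log10 q of 10 or more, 37 and 41 among the top 5000 of each list, 30 and 30 with at least 15 fragments, and 37 and 34 with peaks within 500 bp merged. Cre made up 41.2% of the covered length at −log10 q of at least 10 and between 49.3% and 52.7% under the 4 other filters and mergers. The Cre and GFP overlap shares were 30.4% and 29.2% for at least 50% of both peaks, 91.3% and 93.75% for edges within 1 kb, and 39.1% and 38.5% for summits within 150 bp. With −log10 q of at least 5 in both lists the Cre share was 52.1%. With at least 10 in both the GFP share was 50%, and with at least 10 against all rows of the other list both shares were 100%. Near Mir140 the GFP number of 16 was 7 within 5 kb and 9 at −log10 q of at least 5. The longest stitched domain was 47686 bp at both 3 kb and 5 kb in the Cre list and 43217 bp at 3 kb in the GFP list.

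No paired analysis was possible because each condition had 1 library. A pileup near 12 fragments leaves wide counting error, so a peak of 1 list alone can be one that barely missed the threshold in the other, and single-peak differences cannot be told apart from this.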

Other observations

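The order of the sites in the Cre library depended on the measure. By fragments its second highest summit was at 86.55 kb into Wwp2 (chr8:107522803-107523747, 945 bp), with 28 fragments against 29 at the site before Mir140. By fold the same peak was at 7.04 and ranked 2934 in its list, because the expected pileup there was 3.12, the largest value in the region. At the GFP peak of this place, its summit 19 bp away with 22 fragments, the expected pileup was 0.949. At 83.2 kb it was the other way round: the expected pileup was 2.79 at the GFP peak (17 fragments) and 1.08 at the Cre peak (19 fragments). At 54.5 kb a Cre peak of 20 fragments had an expected pileup of 3.12, and the 2 GFP peaks it overlapped had 2.79 (16 fragments) and 0.949 (24 fragments). The expected pileup was above the genome background at 45 of 92 Cre peaks (48.9%, against 43.2% of the list) and at 26 of 96 GFP peaks (27.1%, against 29.9%). What set the higher expected values was not tested.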
